A study of Mus musculus with 2 samples.

Results

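The genes described here encode matricellular proteins, elastic fibre proteins and the lysyl oxidases that crosslink the extracellular matrix, as they were expressed in mouse embryonic fibroblasts, matrix-secreting cells cultured from embryos. The set holds 10 genes, Thbs1, Thbs2, Fn1, Tnc, Postn, Sparc, Fbn1, Eln, Lox and Loxl1. It was fixed by name, with earlier results of these data known. Of these 10, 9 were measured, each by 1 probe set, out of 19946 genes that a probe set of the arrays named alone. Fbn1, which encodes fibrillin-1, the backbone of microfibrils, had no probe set naming it and was not analysed here. The measured value of a gene is a log2 value made by robust multi-array averaging (RMA), and a difference is the celastrol value minus the DMSO value, so that 1 unit is a doubling.

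All cells carried an adenovirus expressing LacZ, a bacterial gene commonly used as a control cargo, and were kept in medium with 1% FBS. The DMSO group, the solvent control, was 1 array, and the celastrol group was 1 array of cells given 250 nM of that triterpenoid for 7 h. Mouse strain, embryonic age, passage and the number of cultures behind each array were not given in the sources used here. There are therefore no replicates, no spread between cultures and no test in what follows, and the treatment cannot be told apart from the culture or the array it was measured on. In a bulk sample, fewer cells of a type and less RNA per cell cannot be told apart either.

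Matricellular proteins are secreted into the matrix but act mainly by binding receptors, growth factors and other matrix proteins, and many are made during wound repair and tissue remodelling. Fibronectin is laid down early as a fibrillar scaffold through integrins. Elastic fibres form when tropoelastin is deposited on fibrillin microfibrils and joined by lysyl oxidases, copper enzymes that also crosslink collagen. Fibroblasts are a main source of all of these, and TGF-beta and mechanical signals through SRF and YAP are known inducers of many.

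Most of the measured genes had a lower value with celastrol, by small amounts. Of the 9 measured genes, 7 were below 0 (Thbs1, Postn, Thbs2, Lox, Loxl1, Eln and Sparc) and 2 above it (Tnc and Fn1). Of all 13902 detected genes, 51.9% lay below 0 and 48.1% above it. The median difference of the 9 measured genes was -0.30, against -0.01 over all detected genes. As the set was chosen with earlier results of these data known, this comparison is a description only. At least 1.5-fold lower values were seen for 2, Thbs1 and Postn, where the background of detected genes past that fold was 4.68%. No gene of the set was at least 1.5-fold higher, where the background was 6.19%, and none differed by 2-fold in either direction, where the background was 0.662% lower and 1.88% higher. A gene was called detected when either array gave a value over 5.73. That limit is the 95th percentile of 1210 odorant and pheromone receptor probe sets, whose genes fibroblasts should not express. Lox was over it on the DMSO array only, so its place in the counts and the median rests on that array. With a limit of 6.34, the median of all probe sets, 6 genes of the set were below 0 and 2 above it, with a median of -0.26. The differences of those receptor probe sets had a SD of 0.21, and their central 95% ran from -0.42 to 0.41, which measures scatter of dim probe sets within these arrays and not variation between cultures. Thbs1, Postn and Thbs2 lay outside that range, and the other 6 measured genes lay within it.

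The sequences upstream of 3 of these genes are shown. Windows of Sparc and Fbn1 were also read but are not shown, and no usable entry was found for Thbs1. Thbs2 and Postn are shown as genes with lower values and Tnc as the gene with the highest difference of the set. Each sequence is the 250 bases before the RefSeq start in GRCm38.p6, 5′ to 3′ on the strand of the gene. Where RefSeq listed 2 starts (Postn and Tnc), the more downstream one was taken. Capitals mark matches, on either strand, to TATAAA, the box that TBP binds, or to CAGAC, the core that SMAD proteins bind.
Thbs2, chr17:14694263-14694512, minus strand: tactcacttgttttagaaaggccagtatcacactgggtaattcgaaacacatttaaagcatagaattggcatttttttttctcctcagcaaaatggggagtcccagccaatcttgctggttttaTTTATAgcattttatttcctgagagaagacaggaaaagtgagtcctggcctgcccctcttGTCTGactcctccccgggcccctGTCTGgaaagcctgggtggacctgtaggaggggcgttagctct
Postn, chr3:54360857-54361106, plus strand: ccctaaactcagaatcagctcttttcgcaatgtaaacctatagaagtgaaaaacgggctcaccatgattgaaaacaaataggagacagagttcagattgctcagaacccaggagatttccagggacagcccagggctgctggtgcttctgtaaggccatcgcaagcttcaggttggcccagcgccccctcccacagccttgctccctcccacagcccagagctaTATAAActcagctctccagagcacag
Tnc, chr4:64046937-64047186, minus strand: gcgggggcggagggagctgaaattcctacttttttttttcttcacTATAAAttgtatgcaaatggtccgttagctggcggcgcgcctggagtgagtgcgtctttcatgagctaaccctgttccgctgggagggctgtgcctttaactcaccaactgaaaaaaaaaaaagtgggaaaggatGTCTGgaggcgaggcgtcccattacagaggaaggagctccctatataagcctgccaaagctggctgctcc

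The TATAAA of Postn lay 26 to 21 bases before the start. Thbs2 held it on the opposite strand, 126 to 121 bases before the start, and Tnc held it 205 to 200 bases before the start. Only these exact letters were searched, so a near match, such as the tatataag close to the start in the Tnc window, is not marked. TATAAA occurred in 12.4% of all 32851 RefSeq windows of this length. CAGAC stood on the opposite strand, as GTCTG, at 2 places in Thbs2 (66 to 62 and 43 to 39 bases before the start) and at 1 place in Tnc (70 to 66 bases before it), while the Postn window held none. This short motif occurred in 42.2% of all windows. The AP-1 motif TGANTCA (6.75% of all windows), the TEAD motif CATTCC (12.6%), the CArG box bound by SRF (1.47%) and the heat shock motif GAANNTTC (6.69%) were searched on both strands too and had no match in these 3 windows. The motifs searched did not overlap in them. The matches depend on the start taken. At the more upstream RefSeq start, not shown, Postn held CAGAC 191 to 187 bases before the start and no TATAAA. At its own more upstream start, Tnc held TATAAA 126 to 121 bases before the start and no CAGAC. A match is a run of letters and not a measured site.

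Thbs1 had the lowest difference of the set. It encodes thrombospondin-1, a trimeric matricellular protein that can activate latent TGF-beta and inhibits angiogenesis. Its value (probe set 10474700) was 13.82 with DMSO and 13.09 with celastrol, a difference of -0.73, or 1.66-fold lower. Only 313 of the 13902 detected genes (2.25%) had a lower difference. Of the 77 other detected genes whose mean value lay within 0.5 of that of Thbs1, 0 had a lower difference.

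Thbs2, which encodes the related thrombospondin-2, stood at 10.02 with DMSO and 9.56 with celastrol (probe set 10447951). The difference was -0.47, or 1.38-fold lower. It had 8.13% of the detected genes below it, and 226 of 2263 genes (9.99%) of like mean value. Both thrombospondins of the trimeric subgroup were thus lower, and only Thbs1 passed 1.5-fold.

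Postn encodes periostin, a fasciclin-domain protein that binds integrins and collagen and supports collagen crosslinking by lysyl oxidase. Its value (probe set 10492021) was 11.35 with DMSO and 10.74 with celastrol, a difference of -0.61, or 1.53-fold lower. It had 4.20% of the detected genes below it, and 50 of 1075 genes (4.65%) of like mean value. Its distance from the 1.5-fold threshold, which is 0.58 on the log2 scale, was small, and with a lowess trend over mean value removed its difference was -0.584 and it no longer passed.

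The other matricellular genes of the set lay nearer 0 and went both ways. Sparc, a collagen-binding glycoprotein also called osteonectin, stood at 13.35 with DMSO and 13.14 with celastrol, a difference of -0.21 (1.16-fold lower, probe set 10386058). Tnc, which encodes tenascin-C, a hexameric protein of remodelling tissue that modulates adhesion to fibronectin, stood at 11.86 and 12.02, a difference of 0.15 (1.11-fold higher, probe set 10513739). Both differences are smaller than the SD of the receptor probe sets. Among genes of like mean value, 10 of 97 had a lower difference than Sparc and 311 of 433 a lower one than Tnc.

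Fn1 encodes fibronectin, on which other matrix proteins assemble. It had nearly the same value on both arrays, at 13.42 with DMSO and 13.47 with celastrol (probe set 10355403). The difference of 0.05 is 1.03-fold and the smallest in size among the 9 measured genes.

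Eln, Lox and Loxl1, the genes of elastin deposition and crosslinking, all had measured differences below 0. Each of these differences lay within the central range of the receptor probe sets. Neither Eln nor Loxl1 passed 1.5-fold. Eln, which encodes tropoelastin, stood at 6.74 with DMSO and 6.51 with celastrol, a difference of -0.23 (1.17-fold lower, probe set 10534343). Loxl1, whose product acts mainly on elastic fibres, stood at 10.74 and 10.44, a difference of -0.30 (1.23-fold lower, probe set 10594066).

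Lox encodes the founding lysyl oxidase. Its value was 5.82 with DMSO, just over the detection limit, and 5.46 with celastrol, under it (probe set 10458894). The measured difference was -0.37, which lies within the receptor probe sets' central range of -0.42 to 0.41. With the celastrol value below the limit, only the gap from the DMSO value to the limit can be given, which is 1.07-fold. That gap is smaller than the SD of the receptor probe sets (0.21 on the log2 scale), so it does not establish a lower value. Dim probe sets lose part of a difference in RMA, so those of Lox and Eln can be understated.

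**Figure D1:**
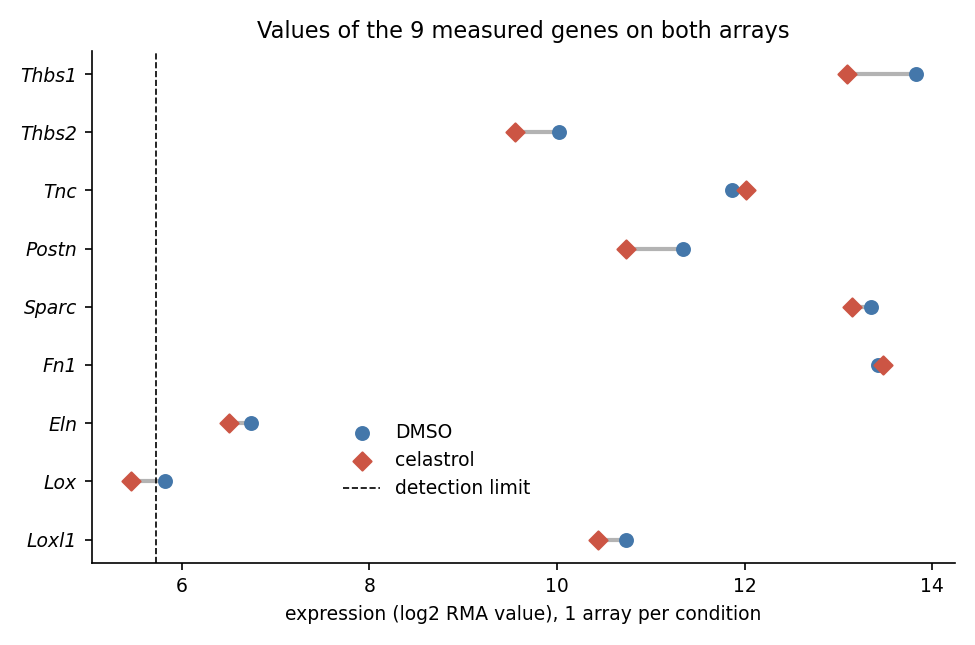
Values of the 9 measured genes on the DMSO array (circles) and the celastrol array (diamonds), in log2 RMA units, with the detection limit of 5.73 as a dashed line. The widest gap is that of Thbs1, from 13.82 to 13.09, the points of Fn1 nearly coincide at 13.42 and 13.47, and Lox crosses the limit.

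**Figure D2:**
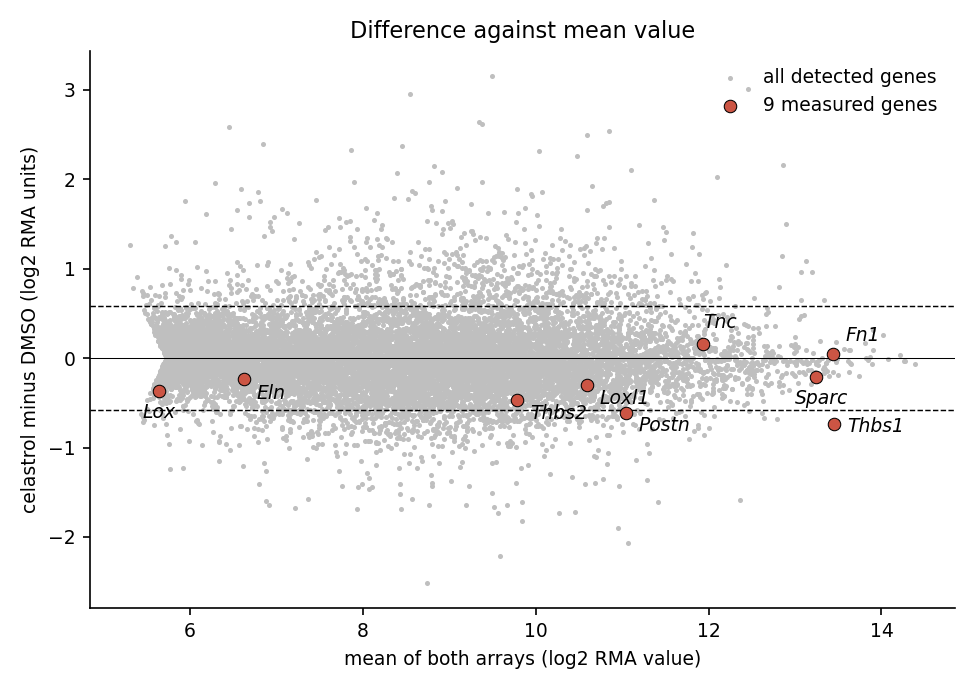
Difference (celastrol minus DMSO, log2) against the mean of both arrays for the 13902 detected genes in grey and the 9 measured genes in red, with dashed lines at 1.5-fold. Thbs1, at -0.73, lies below the 77 other genes of like mean value.

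The listed relatives of these genes, and the CCN family, which holds no gene of the set, were set beside them. These families were chosen with earlier results of these data known, and each listed gene is named whatever its value. Among thrombospondins, 5 of 5 were detected and 3 were below 0, where the background of all detected genes was 51.9%. Thbs3, a pentameric member, stood at 8.81 with DMSO and 8.45 with celastrol, a difference of -0.36. Thbs4 (0.08, with a DMSO value under the detection limit) and Comp (0.03), also pentameric, had differences near 0. The CCN proteins, small matricellular regulators of which Ccn1 and Ccn2 are well known targets of YAP, SRF and TGF-beta, included the lowest matricellular difference. Of 5 listed CCN genes, all detected, 4 were below 0 and 3 at least 1.5-fold lower, against the background of 4.68%. Ccn2, connective tissue growth factor, stood at 11.68 with DMSO and 10.25 with celastrol, which is 2.70-fold lower, and Ccn1 at 12.27 and 11.49, 1.72-fold lower. Ccn5 was also lower (-0.69), Ccn4 had -0.33 and Ccn3 0.03.

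Tnc and its relatives did not share a direction. Tnn, tenascin-N (also called tenascin-W), stood at 8.26 with DMSO and 7.67 with celastrol, a difference of -0.59, and Tnxb, tenascin-X, at 6.19 and 6.41, a difference of 0.21. Tnr, the neural tenascin-R, was not detected. In the SPARC family, 6 of 6 were detected, 4 were below 0, where the background was 51.9%, and none passed 1.5-fold. Sparcl1 had the highest difference there (0.23), with a DMSO value of 5.53, under the detection limit. Smoc1 had 0.06, Smoc2 -0.14, Spock1 -0.05 and Spock2 -0.02. Tgfbi, the fasciclin-domain relative of Postn, stood at 11.49 and 11.15, a difference of -0.34.

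Among lysyl oxidases, 4 of 5 had a probe set naming them alone, and Loxl2 was not analysed here. Loxl4 stood at 9.86 with DMSO and 9.16 with celastrol, a difference of -0.70, and its other probe set gave -0.64. Loxl3, at 8.39 and 8.52, had a difference of 0.13. Loxl4 was thus the one lysyl oxidase at least 1.5-fold lower.

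**Figure D3:**
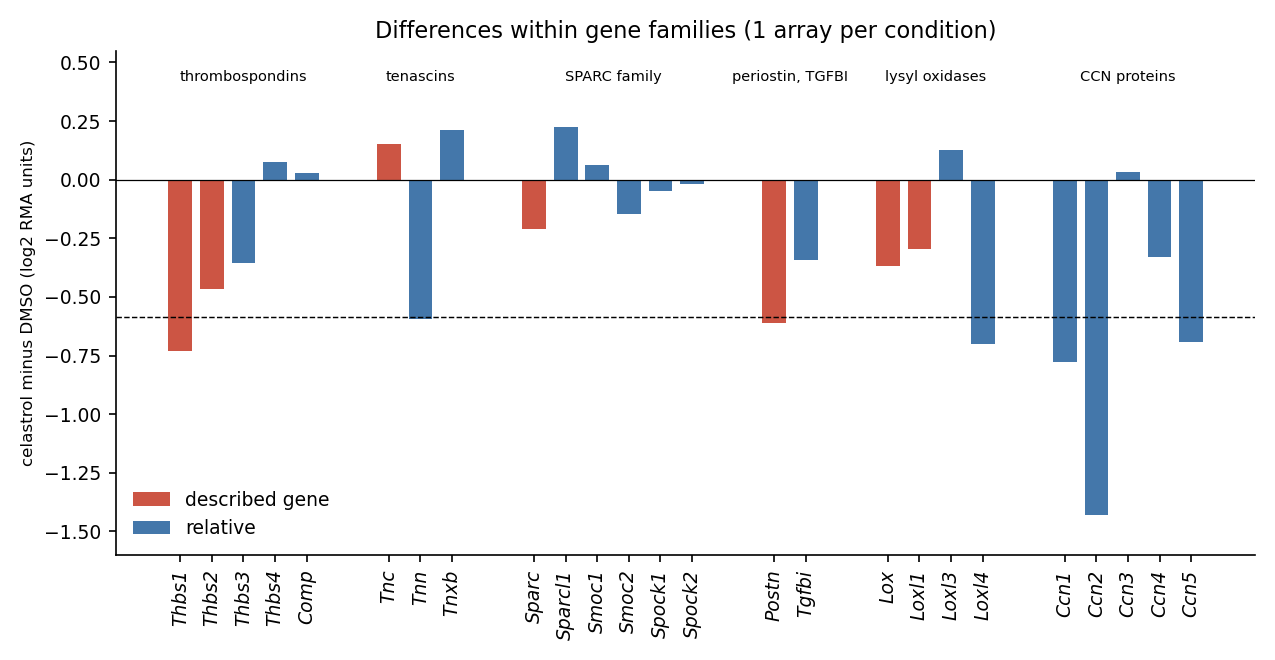
Differences (celastrol minus DMSO, log2, 1 array per condition) of the described genes in red and of their detected relatives and the CCN genes in blue. Genes are grouped by family, with a dashed line at 1.5-fold lower. Ccn2 has the longest bar at -1.43, and the tenascins lie on both sides of 0.

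Among the other matricellular genes more were lower than higher. Of 19 other matricellular genes, 17 were detected, 11 below 0, where the background was 51.9%, and 6 above it, with a median of -0.14. At least 1.5-fold lower were 5 of them, Ccn2, Ccn1, Ccn5, Ccdc80 (-0.63) and Tnn, and none was 1.5-fold higher, where the background was 4.68% lower and 6.19% higher. The count of 5 became 4 with quantile normalization or with the median difference or a lowess trend removed. With the detection limit raised to 6.34, the median of all probe sets, 2 genes above 0 were left and the list's median was -0.35, below the -0.26 of the described genes under that limit. With no limit the list's median was -0.10.

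Elastic fibre genes beyond Eln were mixed. Of 19 listed, 16 were detected, 11 below 0, where the background was 51.9%, and 5 above it. Their median was -0.04, close to that of all detected genes. At least 1.5-fold lower were 3, where the background was 4.68%, namely Emilin1, an elastin microfibril interface protein (9.12 with DMSO and 8.23 with celastrol, 1.85-fold lower), Ltbp2, a latent TGF-beta binding protein of microfibrils (9.21 and 8.41, 1.74-fold lower), and Fbn2, the second fibrillin (-0.60). None was 1.5-fold higher, where the background was 6.19%. Ltbp3, which anchors latent TGF-beta, had the highest difference (0.35), followed by Adamtsl5 (0.20).

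The other crosslinking and collagen-modifying genes split. Of 22 listed, 20 were detected, with 11 below 0 and 9 above it, where the background was 51.9% and 48.1%. Past 1.5-fold were 4 on each side, where the background was 4.68% lower and 6.19% higher. On the lower side, Tgm2, tissue transglutaminase, stood at 7.65 with DMSO and 6.65 with celastrol, which is 2.01-fold lower. P4ha3, a prolyl 4-hydroxylase subunit, was 1.65-fold lower, with Loxl4 and P3h2 (-0.62) beside them. On the higher side, Plod2, the lysyl hydroxylase of collagen telopeptides, stood at 10.25 and 11.16, 1.88-fold higher. The prolyl 4-hydroxylase subunits P4ha2 (1.80-fold higher) and P4ha1 (0.71) and the collagen chaperone Serpinh1 (0.62) were the others. All 3 lysyl hydroxylases were above 0 (Plod1 0.51 and Plod3 0.03 beside Plod2), where the background was 48.1%, and prolyl hydroxylases lay on both sides. The detected lysyl oxidases, Lox and Loxl1 included, were below 0 except Loxl3, where the background was 51.9%. Plod3, Lox, Loxl1 and Loxl3 lay within the central range of the receptor probe sets, and a lower value of Lox was not established.

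Receptors for these proteins differed little. Of 21 listed, 18 were detected, 7 below 0 and 11 above it, where the background was 51.9% and 48.1%. Their median was 0.08, and 1 gene was at least 1.5-fold lower, a share near the background of 4.68%. That gene was Itgb6, an integrin subunit that binds fibronectin and latent TGF-beta (6.62 with DMSO and 6.01 with celastrol, 1.52-fold lower). Itgb5 had -0.48. Neu1 (0.56) and Ctsa (0.54), lysosomal enzymes that also form part of the elastin receptor complex, had the highest differences. Itga5 (0.29) and Itgb1 (0.20), the subunits of the main fibronectin receptor, and the thrombospondin receptor Cd47 (-0.38, and -0.65 by its other probe set) did not pass 1.5-fold by the value used.

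Genes of the pathways known to induce this set went both ways. Of 14 TGF-beta signalling genes, 13 were detected, with 3 lower and 3 higher by 1.5-fold or more, where the background was 4.68% lower and 6.19% higher, and a median of 0.04. Tgfb3, a TGF-beta ligand, had values of 10.43 (DMSO) and 8.70 (celastrol) and was 3.33-fold lower, and the receptor Tgfbr2 was 1.59-fold lower, as was, with -0.66, the co-receptor Tgfbr3. Tgfbr1, the partner receptor (2.12-fold), Smad7, a feedback inhibitor (1.00 on the log2 scale), and Tgif1, a SMAD corepressor (2.44-fold), were higher. Of 12 SRF, MRTF and YAP factors, all detected, 6 were below 0 and 6 above it, with a median of -0.005. By 1.5-fold or more, 1 was lower and 2 higher, where the background was 4.68% and 6.19%. Srf was 1.97-fold lower, Tead4 2.01-fold and Wwtr1, which encodes TAZ, 1.82-fold higher, and Tead3 had -0.52. How any of these relate to the values of Thbs1, Postn or Thbs2 was not tested.

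**Figure D4:**
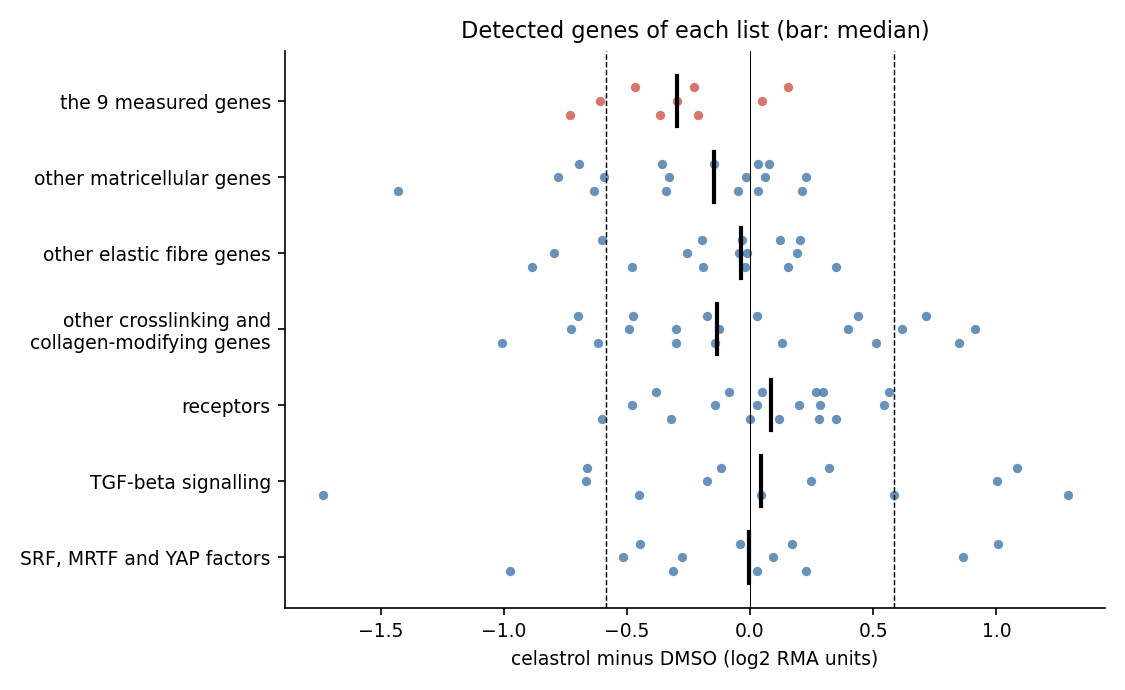
Differences (celastrol minus DMSO, log2) of the detected genes of each list as points, with the list's median as a bar and dashed lines at 1.5-fold. The 9 measured genes, in red, have a median of -0.30 and run from -0.73 to 0.15, whereas the TGF-beta signalling genes run from -1.74 to 1.29 around a median of 0.04.

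The labelled cell type was checked against marker genes. Of 12 fibroblast markers, 10 were detected, with Vim, Prrx1 and Col1a1 the brightest, while Lum and Fap were under the limit. Col1a1, a collagen I chain, had a difference of -0.46, Prrx1 -0.34 and Vim 0.09, and the summed linear value of the detected fibroblast markers was 35868 with DMSO and 32826 with celastrol. All 7 smooth muscle and myofibroblast markers were detected, and their summed linear value was 10390 with DMSO and 7946 with celastrol. In that list Acta2 had a difference of -0.38, Smtn -0.33, Tagln -0.97 (1.96-fold lower) and Cnn1 -0.99, while Des (0.32), Lmod1 (0.14) and Myh11 (0.13) lay above 0. In all, 4 of 7 were below 0 and 2 of 7 at least 1.5-fold lower, where the background was 51.9% and 4.68% respectively. Their summed value was lower with celastrol, as were Thbs1 and Postn, and the part of these markers in that result was not tested. In the lists of other cell types, 4 of 8 endothelial, 3 of 8 macrophage, 5 of 6 epithelial and 5 of 6 cartilage markers were detected. Pecam1 (endothelial), Ptprc and Adgre1 (leukocyte and macrophage) and Epcam (epithelial) were among those under the limit on both arrays. Pecam1 and Ptprc lay just under it with celastrol (5.69 and 5.71). Over the limit were Cdh5 (endothelial, 5.77, with celastrol only), Csf1r (macrophage, 5.99 with DMSO and 6.25 with celastrol) and Cdh1 (epithelial, 5.75 and 5.85). The summed linear values of the detected markers, DMSO first, were 351 and 353 for endothelial, 303 and 598 for macrophage, 362 and 369 for epithelial and 2266 and 2708 for cartilage cells. The macrophage sum moved with Cd68 (1.47) and Cd14 (0.71), and Csf1r had 0.26. The brightest markers of the other lists were Egfl7 (-0.17), Vwf (0.07) and Cldn5 (0.19), Krt8 (-0.04), Krt18 (0.01) and Cldn4 (-0.05), and Sox9 (0.31), Col2a1 (-0.03) and Col11a2 (0.08).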

How the data were processed

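Total RNA was extracted with Trizol, column-purified and biotin-labelled for Affymetrix whole-transcript arrays, per the labels' protocols. The authors deposited log2 values made with RMA, per the submitters' processing notes. The version, the settings and any other arrays normalized together were not given in the sources used here. Values between 2.73 and 14.5 with array medians of 6.33 and 6.35 set the log2 scale. Without the scanner files, background and saturation could not be examined.

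Only the 21797 of 35556 probe sets that GEO's platform annotation tied to a single gene were used. Entrez identifiers of 21698 were matched to a GRCm38.p6 gene table to update symbols. A gene took the probe set with the highest mean of both arrays. The rank of a difference was also taken among detected genes with a mean within 0.5. Lists were described by counts and medians. Members and lists were chosen with earlier results of these data known. Named genes were all members, the 2 highest and 2 lowest of each list, genes past 2-fold and the 3 brightest markers, and relatives and other genes were added after their values were seen. The calculation was tested on simulated data. Software was statsmodels 0.14.6, pandas 2.3.3 and numpy 2.4.6 under Python 3.11.15. The number of arrays limits the precision.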

Additional observations from a re-analysis of the deposited data

How the results depend on the processing

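Of 296 recalculated values, 272 moved by less than the SD of the receptor probe sets (differences and medians) or stayed within 1.5 times (counts), 24 moved further and none changed sign from a value past 1.5-fold. Alternatives were averaging the probe sets of a gene, quantile normalization, removal of the median difference or of a lowess trend (fraction 0.3), a detection limit of 6.34 or none, and other fold thresholds. Across the first 4, Thbs1 ran from -0.73 to -0.71, Postn from -0.62 to -0.58, Thbs2 from -0.47 to -0.42 and Lox from -0.44 to -0.35. Averaging could not move a gene of the set, since each had 1 probe set. In the other lists it could move only Cacna2d1, Cd47, Loxl4, Mrtfb and Tead1. Removing the median difference moved every gene alike. A change of sign was looked for only in the genes of the set past 1.5-fold, Thbs1 and Postn. Those parts of the tally say little about how stable the values are. With the lowess trend removed, 1 gene of the set (Thbs1) was at least 1.5-fold lower. With that trend removed or with quantile normalization, 1 receptor gene was at least 1.5-fold higher. With the limit of 6.34, 2 other matricellular genes were above 0. The other moves follow from the fold threshold itself, and only the counts that moved are given for it. Counts that did not move are left out, such as the 3 TGF-beta genes higher at 2-fold. At a lower fold threshold (0.32 on the log2 scale), 4 of the described genes were lower, Lox among them. So were 8 other matricellular genes, 3 receptors and 3 SRF, MRTF and YAP factors. Higher were 7 crosslinking genes, 1 elastic fibre gene and 3 receptors, against 2229 lower and 2064 higher of all detected genes. At 2-fold, 0 of the described genes were lower, as were 1 other matricellular gene, 0 elastic fibre genes, 1 crosslinking gene, 0 receptors, 1 TGF-beta gene and 0 SRF, MRTF and YAP factors, while 0 crosslinking genes and 1 SRF, MRTF and YAP factor were higher, against 92 lower and 262 higher of all. No paired analysis was possible because each condition has 1 array, and leaving out an array leaves no comparison.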
